A study of Homo sapiens with 15 samples.

Results

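The genes described here are 9 secreted signals of acute inflammation: the chemokines CXCL1, CXCL2, CXCL3, CXCL5, CXCL8 and CCL20, the interleukin-1 family cytokines IL1A and IL1B, and the cytokine LIF. They were chosen by symbol, with results of these libraries in view and because most of them are measurable in HuCCT1, and stand among 62703 genes in the HEK293T count table and 35595 in the HuCCT1 table. All 9 symbols were found in each table. The libraries are rRNA-depleted total RNA from 2 established human cell lines, HEK293T, an embryonic kidney line that carries a viral large T antigen, and HuCCT1, a line from a cancer of the bile duct. HEK293T cells grew in DMEM as SNRPD2KO, PUS7KO and Ctrl, and HuCCT1 cells grew in RPMI-1640 as SNRPD2KO and Ctrl (KO, knockout; Ctrl, control), with 3 libraries in each group. The product of SNRPD2, SMD2, belongs to the Sm ring of spliceosomal particles, and PUS7 encodes a pseudouridine synthase. The labels do not say whether a knockout is 1 clone or a pool, what the Ctrl cells carry, or whether the 3 libraries of a group came from separate cultures, so the p values measure only the spread between these libraries.

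CXCL1, CXCL2, CXCL3, CXCL5 and CXCL8 are short chemokines with a Glu-Leu-Arg motif that draw neutrophils out of the blood through the receptors CXCR1 and CXCR2, and CCL20 draws cells that carry CCR6. IL1A and IL1B bind the same receptor, IL1R1, whose adaptor MYD88 and IRAK kinases lead to NF-kappaB and AP-1, and these factors in turn switch on the chemokine genes, IL1B and LIF in many epithelial cells. LIF acts through LIFR and IL6ST on JAK kinases and STAT3. Epithelial tumours, those of the bile duct among them, can make these signals themselves.

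Of the 9 genes, 5 lie in 1 cluster on chromosome 4, and 4 of their promoters are printed because the members of the cluster share 1 stretch of sequence. In build hg38 of the count tables, CXCL8 (ENSG00000169429.12) spans 73740519 to 73743716, CXCL1 (ENSG00000163739.5) 73869393 to 73871308, CXCL5 (ENSG00000163735.7) 73995642 to 73998677, CXCL3 (ENSG00000163734.4) 74036589 to 74038807 and CXCL2 (ENSG00000081041.9) 74097040 to 74099196. IL1A (ENSG00000115008.6, 112773925 to 112784493), IL1B (ENSG00000125538.12, 112829751 to 112836816) and CCL20 (ENSG00000115009.13, 227805739 to 227817564) lie on chromosome 2, and LIF (ENSG00000128342.5, 30240453 to 30246759) lies on chromosome 22. The promoters come from RefSeq (GRCh38.p14), which matched 8 of the 9 genes, and LIF was not matched. Each sequence below is 70 bases long and runs 5′ to 3′ on the strand of its gene, upstream of the RefSeq start site and of the gene span in the count tables, and the capitals mark GGAATTTCC, a form of the NF-kappaB site. The positions are chr4:73740448-73740517 on the plus strand for CXCL8, chr4:73869285-73869354 on the plus strand for CXCL1, chr4:73998728-73998797 on the minus strand for CXCL5 and chr4:74099233-74099302 on the minus strand for CXCL2.
CXCL8: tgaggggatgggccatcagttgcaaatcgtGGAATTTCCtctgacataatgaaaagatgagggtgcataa
CXCL1: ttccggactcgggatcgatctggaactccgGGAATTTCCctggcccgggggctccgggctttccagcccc
CXCL5: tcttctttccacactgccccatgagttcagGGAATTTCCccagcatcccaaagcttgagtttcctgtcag
CXCL2: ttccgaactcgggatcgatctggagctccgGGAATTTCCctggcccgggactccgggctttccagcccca

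GGAATTTCC was found in 5 of the 8 matched promoters, those of the chromosome 4 genes, within 250 bases upstream of the start site and on either strand. Over all 35116 RefSeq promoters of that length it was found in 0.413%. Its first base lies at -91 from the start site in CXCL8, -90 in CXCL5, -78 in CXCL1 and in CXCL3, and -77 in CXCL2. The CXCL3 stretch lies inside the gene span of the count tables and is not printed. CXCL1, CXCL2 and CXCL3 are close copies of each other, with 81.4% identical bases between the CXCL1 and CXCL3 promoters, 73.3% between CXCL2 and CXCL3 and 70.4% between CXCL1 and CXCL2, so their matches are not separate observations. The general kappaB consensus, of which the GGAATTTCC match is a part in CXCL1, CXCL2, CXCL3 and CXCL5, was also found in CCL20, and occurs in 9.96% of all promoters. The AP-1 motif TGANTCA occurs upstream of CXCL8 and IL1A (6.57% of all promoters), and the C/EBP-type motif TTGCNNAA upstream of CXCL2 and IL1B (9.05%). These motifs were chosen after the sequences had been read, and a match describes letters, not binding.

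The HEK293T libraries held 7944276 to 11270267 counts each and the HuCCT1 libraries 13776166 to 16795618. Levels are given as CPM, counts scaled to the library total with TMM factors. A count of 0 allows up to 3 counts, which is 0.2505 to 0.3425 CPM in HEK293T and 0.172 to 0.2244 in HuCCT1, for counting error alone. The label check went against the name of 1 target gene. SNRPD2 RNA was higher, not lower, in the libraries labelled SNRPD2KO, at 280.4 ± 31.9 CPM (SD, n = 3) against 182.0 ± 13.6 in HEK293T Ctrl and 288.1 ± 29.4 against 154.5 ± 7.30 in HuCCT1. SNRPD2 was also higher in HEK293T PUS7KO than in Ctrl (260.5 CPM, adjusted p 0.000338, edgeR quasi-likelihood test), and its difference between the 2 knockouts did not pass (adjusted p 0.563). Every direction below is therefore that of the libraries labelled SNRPD2KO. PUS7 RNA was lower in HEK293T PUS7KO, at 16.04 ± 2.24 CPM against 26.5 ± 0.510 in Ctrl. The bile duct keratins KRT7 and KRT19 were abundant in HuCCT1 (means of 1873 CPM and above) and near 0 in HEK293T (means up to 0.0379 CPM). KRT8 and KRT18 were present in both lines, at 2141 and 3063 CPM in HuCCT1 Ctrl and 181.0 and 98.8 in HEK293T Ctrl. Of the 6 markers listed for HEK293T, all but CDH2 were higher in HEK293T Ctrl. CDH2 measured 94.3 CPM there and 170.6 in HuCCT1 Ctrl.

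In HuCCT1, all 9 genes had lower RNA in the libraries labelled SNRPD2KO than in Ctrl, by 1.29-fold (CXCL2) to 7.77-fold (CXCL8). CXCL8 and IL1B stood lowest, CXCL5, IL1A, CXCL1 and CXCL3 were 3.12-fold to 4.12-fold lower, CCL20 was 2.10-fold lower, and LIF and CXCL2 differed least. No gene's groups overlapped. The genes were chosen with this contrast known, so the values describe it, carry no test, and nothing is read from their number; of all 15007 genes tested, 28.4% were called lower at an adjusted p under 0.05 (edgeR quasi-likelihood test) and 31.6% were lower with no overlap between the groups. The median log2 fold change was -1.71 over the 9 genes and 0.0025 over all genes tested. In bulk RNA, fewer cells that make a transcript and less of it per cell cannot be told apart.

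**Figure D1:**
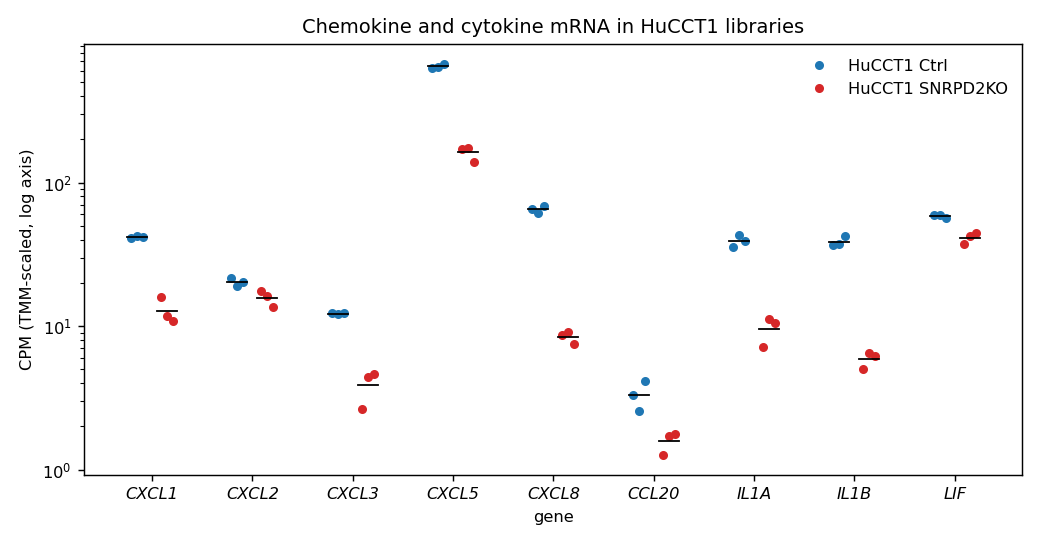
Level of each of the 9 genes in the 6 HuCCT1 libraries, in CPM on a log axis, with 1 point per library and a line at the mean of each group. The points of SNRPD2KO lie below those of Ctrl for every gene, with the widest gap at CXCL8 (means of 8.41 and 65.3 CPM) and the narrowest at CXCL2 (15.8 and 20.3 CPM).

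CXCL8, the chief neutrophil attractant in human tissue, measured 65.5, 61.4 and 69.1 CPM in Ctrl 1, 2 and 3 and 8.66, 9.08 and 7.50 CPM in SNRPD2KO 1, 2 and 3. Every Ctrl library was far above every SNRPD2KO library, and neither group spread by much. On the log2 scale the fold change was -2.95 (standard error, SE, 0.09), and 39 of the 15007 genes had a lower one.

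CXCL5, the neutrophil attractant with the most RNA of the set, measured 629.6, 642.4 and 674.5 CPM in Ctrl and 172.1, 173.7 and 140.0 CPM in SNRPD2KO. Ctrl thus held about 4.01 times the RNA of SNRPD2KO on average, and the third SNRPD2KO library was the lowest. The log2 fold change was -2.00 (SE 0.08). A gene on the opposite strand that overlaps CXCL5, ENSG00000287037, had 30 counts over the Ctrl libraries and 3 over SNRPD2KO, beside 29472 and 8131 for CXCL5.

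CXCL1, CXCL2 and CXCL3 arose by duplication and share stretches of sequence, but they did not differ by the same amount. CXCL1 measured 41.2, 42.8 and 41.9 CPM in Ctrl and 15.8, 11.7 and 10.8 in SNRPD2KO, a log2 fold change of -1.71 (SE 0.12). CXCL3 measured 12.3, 12.1 and 12.3 CPM in Ctrl and 2.64, 4.45 and 4.64 in SNRPD2KO, a log2 fold change of -1.64 (SE 0.19). For both genes the Ctrl libraries were almost level and the SNRPD2KO libraries more spread, with SNRPD2KO 1 the highest for CXCL1 and the lowest for CXCL3.

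CXCL2 measured 21.5, 19.1 and 20.3 CPM in Ctrl and 17.4, 16.2 and 13.7 in SNRPD2KO. The groups did not overlap, but the second Ctrl library stood close to the first SNRPD2KO library, and the log2 fold change was -0.36 (SE 0.11). Per kb of exon length, CXCL1 stood at 31.8 to 33.0 CPM per kb and CXCL2 at 12.8 to 14.4 in the Ctrl libraries, while in SNRPD2KO they overlapped, at 8.34 to 12.2 and 9.11 to 11.6. Of all stretches of 50 bases, 12.5% in CXCL2, 6.01% in CXCL3 and 4.81% in CXCL1 occur in another gene of the trio, and how the counting shared such reads is not given in the sources used here. With the 3 genes summed to 1 before the fit, the log2 fold change was -1.20.

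CCL20, the ligand of CCR6, was the least abundant gene of the set. It measured 3.30, 2.56 and 4.11 CPM in Ctrl and 1.26, 1.72 and 1.78 in SNRPD2KO, from 42 to 55 counts and from 22 to 29 counts. The groups did not overlap, and the log2 fold change of -1.06 had the largest SE of the set, 0.26.

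IL1A and IL1B encode the interleukin-1 cytokines, IL1A an alarm signal that is active as its precursor and IL1B a precursor that needs cleavage. IL1B measured 36.8, 37.4 and 42.1 CPM in Ctrl and 4.99, 6.53 and 6.17 in SNRPD2KO, a log2 fold change of -2.72 (SE 0.11). IL1A measured 35.6, 43.2 and 39.4 CPM in Ctrl and 7.11, 11.2 and 10.4 in SNRPD2KO, a log2 fold change of -2.04 (SE 0.15). In CPM the 2 genes overlapped in Ctrl, and IL1A stood above IL1B in SNRPD2KO. Per kb of exon length, IL1A stood higher in both groups. The values were 16.8 to 20.4 against 11.9 to 13.6 CPM per kb in Ctrl and 3.35 to 5.25 against 1.61 to 2.11 in SNRPD2KO. The order in Ctrl thus rests on the lengths used, 2.124 kb for IL1A and 3.096 kb for IL1B, which join all annotated exons. Of all genes tested, 53 had a lower fold change than IL1B and 151 than IL1A.

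LIF, a cytokine of the interleukin-6 family, measured 59.7, 59.4 and 56.5 CPM in Ctrl and 37.2, 42.4 and 44.6 in SNRPD2KO. The groups were set apart by more than their spread, but the log2 fold change of -0.50 (SE 0.07) was among the smallest of the set. On the strand opposite LIF, LIF-AS2 had 147 counts over SNRPD2KO and 85 over Ctrl, and LIF-AS1 18 and 11. The strand setting of the counting is not given in the sources used here.

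Summed over the 9 genes, HuCCT1 held 905.6 to 960.2 CPM in Ctrl and 239.6 to 277.0 CPM in SNRPD2KO. CXCL5 made up most of it. Without CXCL5 the sums were 276.0 to 285.6 CPM and 95.1 to 103.2 CPM. These sums describe genes chosen with this contrast known.

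Levels of different genes were compared per kb of exon length, which joins all annotated exons of a gene. Such a length can exceed that of the mRNA, and for CXCL3 (2219 bases) it is as long as the whole gene span. The order of the genes depends on these lengths. In HuCCT1 Ctrl, CXCL5 led with 255.6 ± 9.12 CPM per kb (SD, n = 3), which was 66.6% of the sum of the 9 genes on this scale. CXCL1 (32.4 ± 0.593), CXCL8 (28.7 ± 1.70) and IL1A (18.6 ± 1.79) followed, each apart from the next in all libraries. LIF (14.7 ± 0.450), CXCL2 (13.5 ± 0.804) and IL1B (12.5 ± 0.942) formed a middle group in which neighbours overlapped, and CXCL3 (5.50 ± 0.0530) and CCL20 (2.09 ± 0.488) came last. In SNRPD2KO, CXCL5 again led with 63.8 ± 7.50 CPM per kb, but CXCL2 (10.5 ± 1.28), LIF (10.4 ± 0.966) and CXCL1 (9.86 ± 2.07) now came next with overlapping libraries. IL1A (4.50 ± 1.02) and CXCL8 (3.70 ± 0.360) overlapped, as did IL1B (1.90 ± 0.260) and CXCL3 (1.76 ± 0.498), and CCL20 (0.996 ± 0.178) stayed last. CXCL8 thus moved from the third place in Ctrl to the sixth.

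Markers of other cell types were low beside those of the bile duct epithelium. The 12 myeloid and neutrophil markers summed to 10.4 to 11.6 CPM in HuCCT1 Ctrl and 3.90 to 5.53 CPM in SNRPD2KO, so this sum moved with the 9 genes. CSF1R, CD14 and MPO carried most of it, at 3.59, 3.07 and 2.87 CPM in Ctrl and 1.88, 1.52 and 0.648 CPM in SNRPD2KO. CD68 and ELANE were at 0 in all 6 libraries, and in all HEK293T libraries too. PTPRC had a mean of 0 in Ctrl and 0.0191 CPM in SNRPD2KO, and S100A8 had 0.0499 and 0. From Ctrl to SNRPD2KO, means fell for S100A9 (0.68 to 0.28 CPM), ITGAM (0.50 to 0.31), LYZ (0.31 to 0.082) and CSF3R (0.066 to 0.020). FCGR3B had 0 and 0.042 CPM. The summed fibroblast and endothelial markers (7 genes) ran the other way, at 11.0 to 12.18 CPM in Ctrl and 17.32 to 19.17 in SNRPD2KO. COL1A1 made up most of it (9.05 ± 0.697 and 16.3 ± 0.180 CPM), and the other markers did not share its rise. From Ctrl to SNRPD2KO, means fell for COL1A2 (0.374 to 0.0594 CPM), DCN (0.475 to 0.179) and PDGFRB (0.476 to 0.278). They also fell for PECAM1 (0.348 to 0.260) and CDH5 (0.0212 to 0), and VWF was near level (0.989 and 1.00). The 5 lymphocyte markers summed to at most 0.670 CPM. The 7 bile duct epithelial markers summed to 12170 to 12380 CPM in Ctrl and 11810 to 12760 in SNRPD2KO, ranges that overlap. Single markers of this list went both ways. From Ctrl to SNRPD2KO, mean CPM fell for KRT18 (3063 to 2488) and SOX9 (272.8 to 194.7). Mean CPM rose for KRT7 (4595 to 4935), KRT19 (1873 to 2052), KRT8 (2141 to 2272) and CDH1 (247.9 to 295.0). EPCAM stood at 112.6 and 110.3 CPM. No test is given for the markers. The part of CSF1R, CD14, MPO or COL1A1 in the result was not tested.

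The chromosome 4 cluster from CXCL8 to CXCL2 is 358.7 kb long and overlaps 20 genes of the tables, 15 of them outside the set. Of the 5 other protein-coding genes there, CXCL6 and PF4 passed the low-count filter in HuCCT1. CXCL6, a further neutrophil attractant, measured 0.780 ± 0.0603 CPM in SNRPD2KO and 1.16 ± 0.0940 in Ctrl (log2 fold change -0.57, SE 0.31, adjusted p 0.134, edgeR quasi-likelihood test). PF4, a platelet chemokine, measured 0.789 ± 0.262 and 1.40 ± 0.776 CPM (log2 fold change -0.85, SE 0.46, adjusted p 0.137). Neither passed the threshold. PF4V1 had 1 count over SNRPD2KO and 8 over Ctrl, PPBP 6 and 17, and ENSG00000288796 none. Beside the cluster, RASSF6 did not pass (log2 fold change -0.52, SE 0.36, adjusted p 0.239) and MTHFD2L fell (log2 fold change -0.78, SE 0.25, adjusted p 0.0205). MTHFD2L lost its call without SNRPD2KO 2 (adjusted p 0.0502), SNRPD2KO 3 (0.0801) or Ctrl 1 (0.0587), and PF4 passed without Ctrl 3 (log2 fold change -1.22, adjusted p 0.0205).

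**Figure D2:**
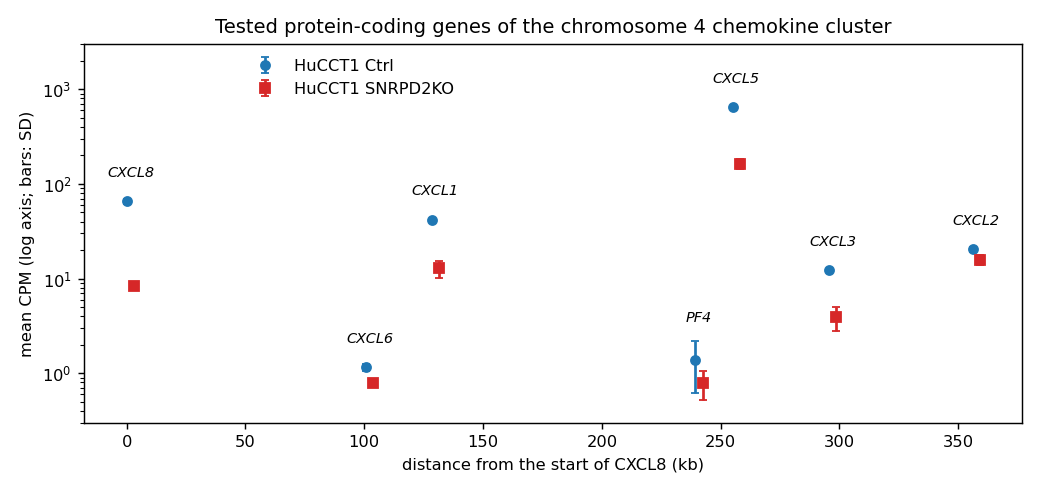
Mean CPM (log axis) in HuCCT1 of the 7 tested protein-coding genes of the chromosome 4 cluster against their distance in kb from the start of CXCL8, with the SD of 3 libraries as bars and the 2 groups shifted sideways for sight. CXCL5 at about 255 kb is the highest in both groups, CXCL8 at 0 kb shows the widest gap, and CXCL6 and PF4 lie near 1 CPM.

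The 5 other genes whose levels over the 6 HuCCT1 libraries were most like the mean of the 9 genes were FAT3, SDE2, THBD, YRDC and BTN2A1. The measure was the Euclidean distance between centred log2(CPM + 0.1) values over 11343 protein-coding genes of at least 1 CPM, and the distances were 0.109, 0.179, 0.187, 0.189 and 0.209. The 9 genes themselves lay further from their own mean, from 0.510 (CXCL3) and 0.511 (CXCL5) to 1.63 (CXCL2), since they differed in the size of the gap. THBD, the thrombin receptor thrombomodulin, measured 21.8 ± 0.788 CPM in SNRPD2KO and 68.9 ± 2.48 in Ctrl, and FAT3, a cadherin-related protein, 3.78 ± 0.329 and 11.9 ± 0.602. SDE2, BTN2A1 and YRDC had log2 fold changes of -1.55, -1.59 and -1.79.

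In HEK293T most of the 9 genes were at or near the limit of detection. CXCL5, which led in HuCCT1, had 0 counts in all 9 HEK293T libraries. CCL20 had 0 to 3 counts per library, IL1B 0 to 4, IL1A 0 to 7, CXCL1 0 to 7 and CXCL3 2 to 9. Among these, IL1A had 7, 0 and 0 counts in SNRPD2KO, 7, 5 and 6 in PUS7KO and 2, 7 and 5 in Ctrl, and IL1B had none in the SNRPD2KO libraries. At these counts differences could not be detected, and no fold is given. The sum of the 9 genes was 4.18 to 7.08 CPM in SNRPD2KO, 6.18 to 6.78 in PUS7KO and 5.79 to 8.45 in Ctrl. CPM were scaled separately in each line.

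CXCL2, CXCL8 and LIF passed the low-count filter in HEK293T, and CXCL8 and LIF passed the test, in opposite directions. CXCL8 was 2.02-fold higher in the libraries labelled SNRPD2KO and 2.68-fold higher in PUS7KO than in Ctrl, while LIF was 3.31-fold and 4.29-fold lower. Both comparisons use the same Ctrl libraries. No count over the genes that passed is used as support, since a gene can pass the filter through the group where it is high. Of all 15882 genes tested, 26.9% were called higher and 26.4% lower in SNRPD2KO, and 25.6% and 23.8% in PUS7KO, so a call in either direction was common.

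CXCL8 measured 1.29, 0.799 and 1.14 CPM in Ctrl, 1.72, 1.54 and 3.24 in SNRPD2KO, and 2.96, 2.75 and 2.91 in PUS7KO. Both knockout groups lay above all 3 Ctrl libraries, PUS7KO evenly and SNRPD2KO with 1 library, the third, far above its own others. Of all genes tested, 30.1% were higher with no overlap in SNRPD2KO and 29.5% in PUS7KO. Against Ctrl the log2 fold change was 1.03 (SE 0.36, adjusted p 0.0246, edgeR quasi-likelihood test) in SNRPD2KO and 1.41 (SE 0.35, adjusted p 0.00327) in PUS7KO. The call in SNRPD2KO was lost without the third SNRPD2KO library (0.61, adjusted p 0.192), without the second Ctrl library (0.87, adjusted p 0.0899) and with DESeq2 (1.01, adjusted p 0.0557). The call in PUS7KO was kept under every alternative run, with adjusted p values up to 0.0184.

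LIF measured 3.32, 4.11 and 4.32 CPM in Ctrl, 1.07, 0.770 and 1.71 in SNRPD2KO, and 1.24, 0.668 and 0.833 in PUS7KO. Every Ctrl library stood above every knockout library, and the 2 knockout groups overlapped. Lower with no overlap were 29.4% of all genes tested in SNRPD2KO and 27.7% in PUS7KO. LIF fell by 1.68 on the log2 scale in SNRPD2KO (SE 0.33, adjusted p 0.000425, edgeR quasi-likelihood test) and by 2.09 in PUS7KO (SE 0.34, adjusted p 0.000101). On the strand opposite LIF, LIF-AS2 had 12 counts over Ctrl, 4 over SNRPD2KO and 5 over PUS7KO, and without a stated strand setting reads of the 2 genes cannot be told apart.

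CXCL2 measured 0.643, 1.60 and 0.568 CPM in Ctrl, 1.07, 1.10 and 1.36 in SNRPD2KO, and 1.05, 0.835 and 0.624 in PUS7KO. The Ctrl libraries were spread over the range of the knockouts. The log2 fold change was 0.35 (SE 0.44, adjusted p 0.527, edgeR quasi-likelihood test) in SNRPD2KO and -0.15 (SE 0.46, adjusted p 0.812) in PUS7KO.

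**Figure D3:**
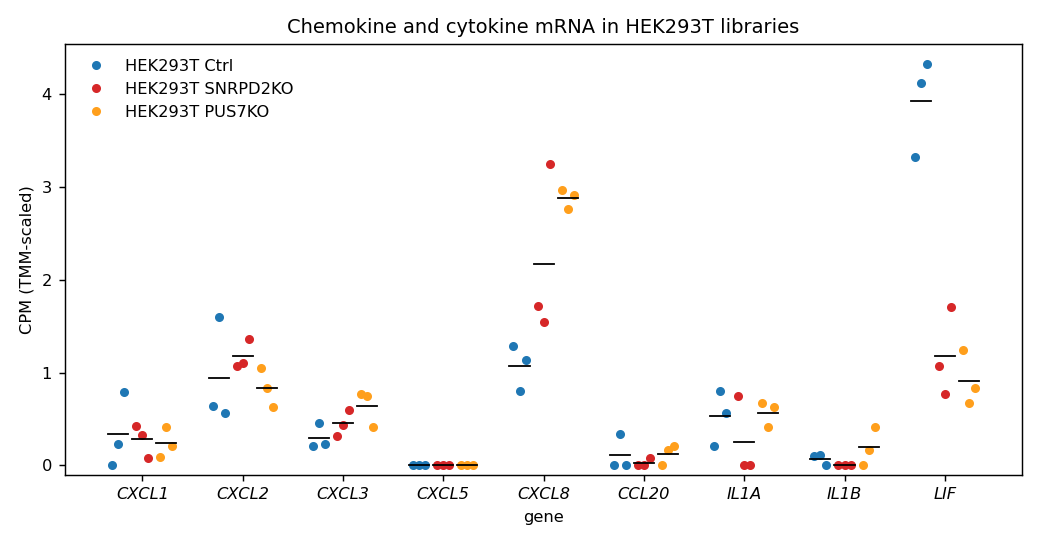
Level of each of the 9 genes in the 9 HEK293T libraries in CPM on a linear axis, with 1 point per library and a line at the mean of each group. LIF is highest in Ctrl (3.32 to 4.32 CPM), CXCL8 is highest in PUS7KO and in the third SNRPD2KO library (3.24 CPM), and CXCL5 is at 0 throughout.

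Between the 2 knockouts of HEK293T, none of the 3 genes passed the test, where 1.57% of all genes were called higher in SNRPD2KO and 3.2% lower. The log2 fold change, SNRPD2KO minus PUS7KO, was -0.38 for CXCL8 (SE 0.31, adjusted p 0.515, edgeR quasi-likelihood test), 0.41 for LIF (SE 0.39, adjusted p 0.585) and 0.49 for CXCL2 (SE 0.43, adjusted p 0.547). Their unadjusted p values were 0.24, 0.311 and 0.271. CXCL2 was higher in all SNRPD2KO than in all PUS7KO libraries, as were 12.6% of all genes. These p values do not show that the knockouts act alike on the 3 genes.

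Per kb of exon length, the order in HEK293T differed from HuCCT1. In Ctrl, LIF (0.987 ± 0.132 CPM per kb, SD, n = 3), CXCL2 (0.624 ± 0.383) and CXCL8 (0.472 ± 0.110) came first with overlapping neighbours. In SNRPD2KO, CXCL8 (0.953 ± 0.412) and CXCL2 (0.786 ± 0.108) overlapped, and LIF followed at 0.298 ± 0.120. In PUS7KO, CXCL8 (1.26 ± 0.0474) stood apart from CXCL2 (0.558 ± 0.142), and CXCL2 from the rest.

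LIF was lower in the libraries labelled SNRPD2KO of both lines, whereas CXCL8 was lower in HuCCT1 and higher in HEK293T. The difference between the lines was not tested for the 9 genes, since HuCCT1 values had chosen them. For LIF the log2 fold changes side by side were -0.50 in HuCCT1 and -1.68 in HEK293T, from means of 58.5 and 3.92 CPM in Ctrl.

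**Figure D4:**
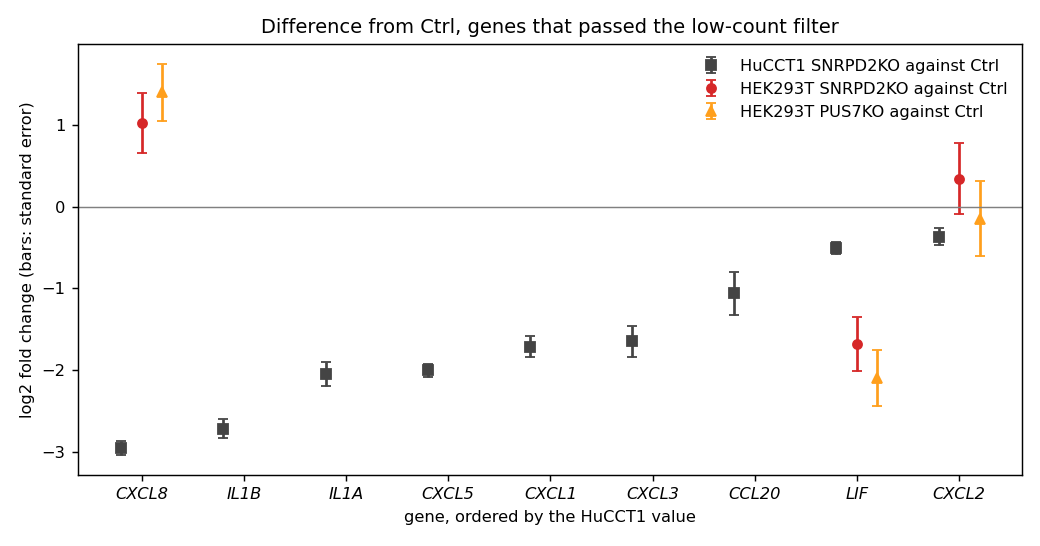
Log2 fold change against Ctrl with its SE for each gene that passed the low-count filter, ordered by the HuCCT1 value. All 9 HuCCT1 values lie below 0, from -2.95 (CXCL8) to -0.36 (CXCL2), while in HEK293T CXCL8 lies above 0 and LIF below it in both knockouts.

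Around the 9 genes, 9 lists of pathway genes (136 genes) were read from the same fits, listed with earlier results of these data known. In HuCCT1, 102 of them were tested, of which 27 were higher and 45 lower in the libraries labelled SNRPD2KO, with a median log2 fold change of -0.23, against 28.8% higher and 28.4% lower over all genes tested. Adjusted p values in this and the next paragraphs are from the edgeR quasi-likelihood test.

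Other chemokine ligands were split: of 18, 11 were tested, 2 rose and 2 fell. CXCL16, a chemokine that is made as a membrane protein, fell from 93.3 ± 3.99 to 38.1 ± 3.75 CPM (log2 fold change -1.29, adjusted p 1.86e-07), and CCL26, an attractant of eosinophils, from 2.90 ± 0.282 to 1.71 ± 0.322 CPM (adjusted p 0.0177). CXCL10 and CXCL9, interferon-induced ligands of CXCR3, rose, CXCL10 from 18.2 ± 3.04 to 28.4 ± 1.44 CPM (log2 fold change 0.64, adjusted p 0.000685) and CXCL9 from 0.499 ± 0.131 to 1.06 ± 0.216 CPM (1.06, adjusted p 0.0309). CXCL9 lost its call without SNRPD2KO 1 (adjusted p 0.110), SNRPD2KO 3 (0.0708), Ctrl 2 (0.0839) or Ctrl 3 (0.105), and with DESeq2 (0.104), no filter (0.0716) or the replicate block (0.0526). CCL26 lost its call without SNRPD2KO 1 (adjusted p 0.0538), SNRPD2KO 3 (0.0671) or Ctrl 2 (0.061). Of the 7 chemokine receptors, CXCR4 alone passed the filter and rose (log2 fold change 0.27, adjusted p 0.0126, and 0.0525 without Ctrl 2).

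All 3 tested of the 9 other ligands of the interleukin-1 family fell. IL1RN, the antagonist that blocks the receptor of IL1A and IL1B, fell from 159.9 ± 3.08 to 87.3 ± 2.204 CPM (log2 fold change -0.87, adjusted p 1.87e-07). IL18 fell from 182.3 ± 13.3 to 117.8 ± 7.04 CPM (-0.63, adjusted p 1.44e-05), and IL37, an inhibitory member, from 9.72 ± 2.51 to 4.77 ± 1.15 CPM (-1.03, adjusted p 0.00229). The log2 fold change of IL1RN stood beside -2.04 for IL1A and -2.72 for IL1B.

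The receptors and adaptors of the family were split, with 6 higher and 6 lower of 18 tested. IL1RL1, the receptor of IL-33, fell from 6.99 ± 1.18 to 0.948 ± 0.290 CPM (log2 fold change -2.88, adjusted p 3.03e-06), IL1RL2, the receptor of the IL-36 cytokines, fell (-1.20, adjusted p 0.000209), and so did the kinase IRAK2 (-0.99, adjusted p 3.84e-07). SIGIRR, a receptor that dampens the signal, rose (0.78, adjusted p 6.1e-06), as did the kinases IRAK4 (0.70, adjusted p 0.00492) and IRAK1 (0.68, adjusted p 4.33e-07). IL1R1, which binds IL1A and IL1B, measured 3.22 ± 0.270 CPM in SNRPD2KO and 2.64 ± 0.378 in Ctrl and did not pass (adjusted p 0.255). Among 9 tested genes of cytokine processing and the inflammasome, 3 rose and 2 fell: CARD8 (1.10) and the calpains CAPN1 (0.88) and CAPN2 (0.19) rose, and the sensors NLRP3 (-1.13) and NLRP1 (-1.10) fell. CAPN2 lost its call without Ctrl 2 (adjusted p 0.0634) or Ctrl 3 (0.0808). CASP1, which cleaves the IL1B precursor, measured 11.7 ± 2.51 CPM in SNRPD2KO and 10.7 ± 0.399 in Ctrl and did not pass (adjusted p 0.495), but did without SNRPD2KO 1 (adjusted p 0.047).

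Genes of LIF and interleukin-6 signalling were also split, 5 higher and 5 lower of 15 tested. IL11 fell from 17.1 ± 1.78 to 4.46 ± 0.738 CPM (log2 fold change -1.94, adjusted p 8.77e-07), CLCF1, another ligand of the family, fell (-0.72, adjusted p 2.26e-05), and so did SOCS3, the feedback inhibitor (-0.65, adjusted p 3.99e-06). TYK2 (1.15, adjusted p 3.82e-07), OSMR (0.68, adjusted p 2.12e-06) and the shared receptor chain IL6ST (0.60, adjusted p 2.3e-05) rose. LIFR, the receptor of LIF, measured 17.1 ± 0.352 CPM in SNRPD2KO and 17.0 ± 0.771 in Ctrl (adjusted p 0.923). Of 8 other cytokines tested, 4 fell and 1 rose. IL23A (-1.84, adjusted p 2.14e-06), CSF2, which encodes GM-CSF (-1.64, adjusted p 3.59e-07), and IL24 (-1.44, adjusted p 0.00237) led the decrease, and CSF1 rose (0.23, adjusted p 0.0252), a call lost without SNRPD2KO 1 (adjusted p 0.0655), Ctrl 2 (0.0574) or Ctrl 3 (0.0913).

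Of 24 tested NF-kappaB and AP-1 genes, 15 fell and 6 rose, and the median log2 fold change was -0.44. TNFAIP3, an inhibitor that NF-kappaB induces, fell from 242.4 ± 2.15 to 114.5 ± 4.78 CPM (log2 fold change -1.08, adjusted p 4.84e-08), NFKBIE, another inhibitor, from 63.1 ± 0.960 to 28.8 ± 0.813 CPM (-1.13, adjusted p 8.48e-08), and the AP-1 subunit FOSL1 from 1641 ± 81.9 to 751 ± 77.4 CPM (-1.13, adjusted p 3.03e-07). The subunits FOS (2.36, adjusted p 1.45e-09), JUND (1.21, adjusted p 1.19e-06) and FOSB (1.09, adjusted p 4.74e-06) rose, FOS from 20.5 ± 0.359 to 105.7 ± 3.24 CPM. Of 13 tested factors that control the decay of cytokine mRNA, 8 fell and 3 rose. ZFP36L2 (-1.08, adjusted p 2.27e-06), TIAL1 (-0.70, adjusted p 8.66e-07) and TIA1 (-0.57, adjusted p 0.000693) fell, and ZFP36L1 (0.39, adjusted p 0.000255), ZFP36 (0.35, adjusted p 0.00054) and CNOT1 (0.30, adjusted p 0.000578) rose.

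**Figure D5:**
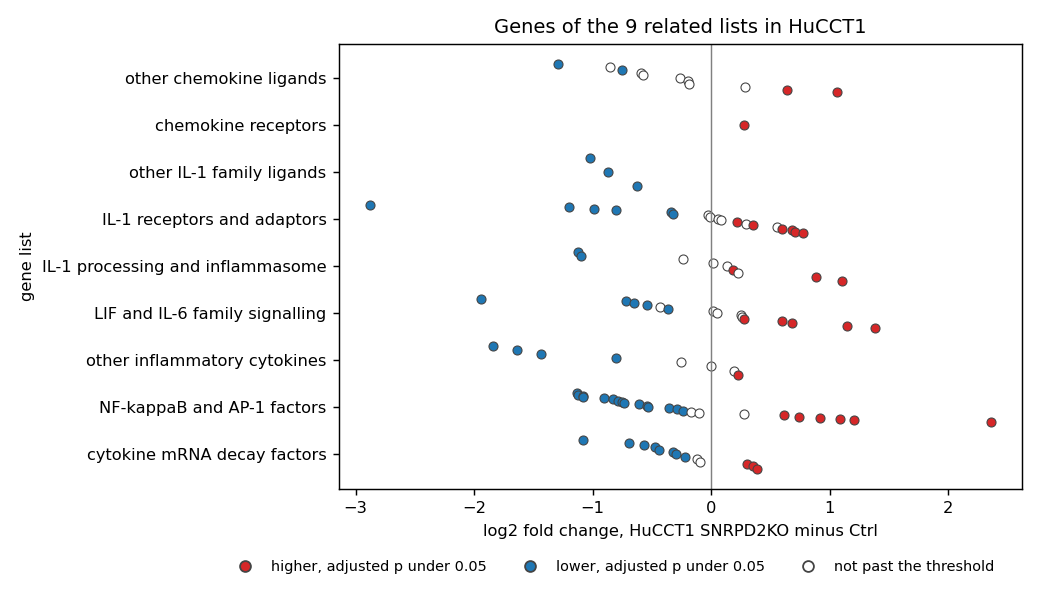
Log2 fold change (SNRPD2KO minus Ctrl) in HuCCT1 of the 102 tested genes of the 9 lists, 1 point per gene, filled where the adjusted p is under 0.05. IL1RL1 (-2.88) and FOS (2.36) are the extremes, and 15 of the 24 NF-kappaB and AP-1 genes lie to the left as filled points.

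In HEK293T, 76 genes of the lists were tested. Against the shared Ctrl, 16 were higher and 26 lower in the libraries labelled SNRPD2KO, and 15 were higher and 27 lower in PUS7KO. Of all genes tested, 26.9% were higher and 26.4% lower in SNRPD2KO, and 25.6% and 23.8% in PUS7KO. Genes of LIF and interleukin-6 signalling were split, with 3 higher and 6 lower of 13 tested in SNRPD2KO and 3 higher and 4 lower in PUS7KO. LIFR measured 35.3 ± 0.259 CPM in Ctrl, 14.0 ± 2.01 in SNRPD2KO (log2 fold change -1.33, adjusted p 5e-07) and 20.9 ± 3.54 in PUS7KO (-0.75, adjusted p 0.000131). IL6ST measured 30.4 ± 1.08 CPM in Ctrl, 12.1 ± 3.31 in SNRPD2KO (-1.32, adjusted p 2.11e-06) and 23.0 ± 2.11 in PUS7KO (-0.40, adjusted p 0.0264), and JAK2 10.3 ± 0.507, 3.86 ± 1.45 (-1.40, adjusted p 0.000105) and 5.55 ± 1.04 (-0.89, adjusted p 0.00346). IL11RA (1.04, adjusted p 0.00537, and 0.80, adjusted p 0.0287) and CTF1 (1.035, adjusted p 0.0412, and 1.10, adjusted p 0.0318) rose in SNRPD2KO and in PUS7KO. The PUS7KO call of IL11RA and both calls of CTF1 were lost without some single libraries, and those of CTF1 also with DESeq2. TYK2, another kinase of the family, rose in SNRPD2KO (0.55, adjusted p 0.000593) and in PUS7KO (0.32, adjusted p 0.0252). The TYK2 call in PUS7KO was lost without PUS7KO 3 (adjusted p 0.0781), Ctrl 1 (0.103) or Ctrl 2 (0.0871) and with DESeq2 (0.0725). STAT3 did not pass in either (0.03, adjusted p 0.803, and -0.13, adjusted p 0.251), and JAK1 fell in SNRPD2KO (-0.28, adjusted p 0.0142) and did not pass in PUS7KO (-0.20, adjusted p 0.0755). LIFR and IL6ST were also lower in SNRPD2KO than in PUS7KO (-0.57, adjusted p 0.0277, and -0.92, adjusted p 0.00925). The call of IL6ST in PUS7KO was lost without PUS7KO 1 (adjusted p 0.109), PUS7KO 3 (0.0844), Ctrl 1 (0.0529), Ctrl 2 (0.051) or Ctrl 3 (0.0767). Between the knockouts, the call of LIFR was lost without SNRPD2KO 1 (adjusted p 0.161), SNRPD2KO 2 (0.132) or PUS7KO 2 (0.167) and with the 2 groups alone (0.0529), and that of IL6ST without SNRPD2KO 1 (0.0718), SNRPD2KO 2 (0.0542) or PUS7KO 2 (0.053). These 2 genes are among 4 higher and 5 lower list genes of that comparison, where 1.57% of all genes were called higher and 3.2% lower. The counts were 0 higher and 1 lower without SNRPD2KO 1, without SNRPD2KO 2 or without PUS7KO 2, 0 and 3 without PUS7KO 1, and 1 and 5 without PUS7KO 3.

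Among the regulators in HEK293T, CEBPB, a factor of the C/EBP family, rose from 15.8 ± 1.92 CPM in Ctrl to 50.4 ± 5.46 in SNRPD2KO (log2 fold change 1.67, adjusted p 2.24e-08) and 40.3 ± 4.56 in PUS7KO (1.35, adjusted p 2.97e-07). JUN (0.91, adjusted p 1.08e-06, and 1.18, adjusted p 1.04e-07) and JUND (1.14, adjusted p 1.55e-07, and 0.98, adjusted p 1.03e-06) rose as well. FOSL1 (-2.03, adjusted p 1.53e-05, and -1.86, adjusted p 3.6e-05), FOSL2 (-1.70, adjusted p 4.06e-07, and -1.46, adjusted p 2.06e-06) and TNFAIP3 (-1.55, adjusted p 3.2e-05, and -1.52, adjusted p 4.22e-05) fell in SNRPD2KO and in PUS7KO. IL18, the 1 other interleukin-1 family ligand tested, fell from 4.13 ± 0.144 CPM to 2.15 ± 0.325 (-0.95, adjusted p 0.00445) in SNRPD2KO, and fell in PUS7KO (-0.90, adjusted p 0.00634).

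The difference between the lines was tested for the list genes by an interaction of line and genotype over the libraries labelled SNRPD2KO and Ctrl. Of 72 genes tested, 24 had a higher log2 fold change in HuCCT1 than in HEK293T and 17 a lower one, while 23.8% and 27.1% of the 12706 genes tested in each line did. LIFR (1.29, SE 0.15, adjusted p 2.5e-06) and JAK2 (1.60, SE 0.28, adjusted p 0.000147) were among the former. Called in opposite directions in the 2 lines, with a called difference, were 7 of the 72 genes (9.72%), against 12.03% of the genes tested in each line.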

How the data were processed

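The authors deposited 1 table of whole-number counts per gene for each cell line, with no normalization. Cutadapt 4.2, HISAT2 2.2.1, RSEM and the build hg38 are named per the submitters' processing notes; their roles, the gene annotation release and the strand setting are not given in the sources used here. Libraries came from a stranded rRNA-depletion kit and a HiSeq2000, per the labels' protocols. Total counts per library ran from 7944276 to 16795618, and replicate pairs differed by more than counting error (chi-square per degree of freedom 3.42 to 12.9).

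From these counts, each line was fitted on its own (all 9 HEK293T libraries, or 6 of HuCCT1) in R 4.3.3 with edgeR 4.0.16: TMM factors, filterByExpr at its defaults (a minimum count of 10 and a minimum total of 15), then the two-sided quasi-likelihood F test, Benjamini-Hochberg adjusted over all 15882 or 15007 genes tested, threshold 0.05. The biological coefficient of variation was 10.8% and 10.1%. CPM carry the TMM factors. Exon lengths are the union of the exons of each gene in GENCODE 29, which can be longer than the mRNA. This release may differ from the annotation used for the counting. On simulated counts, of 100 genes changed 2-fold, the fit recovered 72% in HEK293T SNRPD2KO against Ctrl (15882 genes) and 79% in HuCCT1 (15007 genes). There were 7 and 8 false calls. The simulation gave every gene the same spread and left most genes unchanged, unlike these libraries. It checks that the fit runs as meant, and its shares are not the power reached here.

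The 9 genes, the lists and the markers were chosen with earlier results of these data known. Named genes are the 9 genes, both targets, the cluster and its neighbours, the 5 most alike, and up to 3 genes per list, direction and comparison with the largest fold change among those past the threshold and at 1 CPM or more in the higher group. Some of these are left out. IL1R1, CASP1, IL6ST in PUS7KO, LIFR in HuCCT1, JAK1 and STAT3 in HEK293T and the genes called in opposite directions in the 2 lines were added after their values were seen. Alternatives were RLE factors, DESeq2 1.42.0, no filter, a filter of 1 CPM in 3 libraries, a replicate block, 2 groups alone, the 3 paralogs summed and each library left out. Removing trends with GC content (GENCODE 29 transcripts) and level, from the 501 nearest genes, was added after seeing the data.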

Additional observations from a re-analysis of the deposited data

Results flagged for a closer look

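CXCL8 was higher in every library labelled SNRPD2KO than in every Ctrl library of HEK293T and lower in every one in HuCCT1, where its log2 fold change was -2.95. Of all genes tested, 30.1% were higher with no overlap in HEK293T and 31.6% lower in HuCCT1. The share of genes that did both is not given here, so how unusual CXCL8 is cannot be read from these values. The HEK293T counts were low, at 16, 14 and 38 in SNRPD2KO and 12, 7 and 10 in Ctrl. The HEK293T call was lost without SNRPD2KO 3 (adjusted p 0.192, edgeR quasi-likelihood test), without Ctrl 2 (0.0899) and with DESeq2 (0.0557). The difference between the lines was not tested for this gene.

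Of the 72 genes of the 9 lists tested in each line, 7 (9.72%) passed the threshold in opposite directions in the 2 lines and also passed the test of the difference itself (HuCCT1 minus HEK293T in the log2 fold change of SNRPD2KO against Ctrl, edgeR quasi-likelihood test). The share over all genes tested in each line was 12.03%, so nothing particular to the lists is read from it. CEBPB, which rose in HEK293T and fell in HuCCT1, differed by -2.54 (adjusted p 3.43e-10). IRAK2 differed by -1.48 (adjusted p 3.14e-06), CEBPD by -1.28 (adjusted p 0.00141) and NFKB2 by -1.01 (adjusted p 1.01e-06), all rising in HEK293T and falling in HuCCT1. IL6ST differed by 1.87 (adjusted p 1.91e-07), NFKBIZ by 1.81 (adjusted p 1.18e-06) and MAP3K7, the kinase TAK1, by 0.95 (adjusted p 2.58e-05), all falling in HEK293T and rising in HuCCT1. CEBPD lost its call in HuCCT1 without a low-count filter (adjusted p 0.0636) and without SNRPD2KO 1 (0.0583), SNRPD2KO 3 (0.0934), Ctrl 1 (0.0845) or Ctrl 2 (0.0535), and in HEK293T without Ctrl 2 (0.0988). IRAK2 lost its call in HEK293T without SNRPD2KO 1 (adjusted p 0.139), Ctrl 1 (0.114) or Ctrl 3 (0.138), and with RLE factors (0.0508), DESeq2 (0.094), the replicate block (0.0561) or the 2 groups alone (0.0611).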

How the results depend on the processing

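In HuCCT1 none of the 9 genes changed direction under any of the alternatives run: CXCL8 ranged from -3.07 to -2.86, IL1B from -2.84 to -2.60, IL1A from -2.16 to -1.86, CXCL5 from -2.14 to -1.81, CXCL1 from -1.89 to -1.59, CXCL3 from -1.81 to -1.42, CCL20 from -1.22 to -0.89, LIF from -0.54 to -0.43 and CXCL2 from -0.45 to -0.26. The median of the 9 moved from -1.71 to -2.00 with the 3 paralogs summed, since fewer values then enter it. List genes lower in SNRPD2KO than in PUS7KO (HEK293T) went from 5 to 3 with the replicate block and to 3 with the 2 groups alone, and ranged from 1 to 5 with single libraries left out; those higher (4) ranged from 0 to 6, and the cause was not tested. Of 1941 values for 151 named list results, 1790 kept direction and side of the threshold, 146 fell short of it, 5 newly passed it and none reversed. Deviations of same-numbered libraries correlated from -0.086 to 0.044 in HEK293T (9 pairs) and from -0.037 to -0.011 in HuCCT1. The largest value between groups was 0.127, for SNRPD2KO 3 and PUS7KO 2 of HEK293T, whose numbers differ. These values cannot show whether libraries shared a culture or a batch. With the replicate block, CXCL8 in HEK293T SNRPD2KO stood at 0.99 (adjusted p 0.0313) and LIF at -1.71 (adjusted p 0.000756). In HEK293T 6 of the 9 genes had 9 counts or fewer in every library, which limits the precision of their values. GC content and level trends were chosen after seeing the data.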
